A study of Mus musculus with 16 samples.

Results

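Splenic monocytes were 520 of the 8686 cell barcodes in the 4 CD45+ spleen libraries of a mouse single-cell RNA sequencing study, and the 8 CD45+ libraries of spleen and tumor held 17769 barcodes in all. They were selected on raw counts of unique molecular identifiers (UMIs): at least 5 of Lyz2, at most 1 of C1qa, C1qb and C1qc together, 0 of Cd3e, Cd3d and Cd3g together, at most 1 of Cd79a and fewer than 10 of S100a8. Within them, 425 cells with at least 1 UMI of Ace, Ear2 and Adgre4 together were called nonclassical. The 86 cells with 0 UMIs of these 3 genes and at least 1 of Ly6c2 were called classical, and 9 cells met neither condition.

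The study followed tumor rejection under checkpoint blockade in mice without Aire, the regulator that lets thymic epithelium present antigens of peripheral tissues to developing T cells. Littermates on a C57BL/6 background, *Aire*+/+ or *Aire*-/- and 8 weeks of age, carried MC38, a colon carcinoma line, and received anti-PD1 or an isotype control antibody at 5 mg/kg. Spleens and tumors were taken on day 19, and each of the 4 conditions gave 1 CD45+ spleen library and 1 CD45+ tumor library, each from cells pooled over several mice. Spleens were dispersed mechanically and tumors with enzymes. The spleen libraries held 12181204 UMIs over 2119 barcodes (*Aire*+/+ isotype), 10987966 over 2117 (*Aire*+/+ anti-PD1), 11227536 over 2048 (*Aire*-/- isotype) and 12636196 over 2402 (*Aire*-/- anti-PD1), and the tumor libraries held 38961019, 28780149, 24658731 and 23286590 UMIs in the same order. Values from the 4 libraries are given in that order throughout. With 1 library for each condition, differences between conditions have no replicate error, and every 95% interval on counts or shares covers counting error only.

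Classical monocytes leave the bone marrow through the chemokine receptor Ccr2, enter inflamed tissue and can become macrophages or dendritic cells. Nonclassical monocytes develop from them, need the nuclear receptor Nr4a1 and patrol the inner wall of blood vessels. The spleen keeps both in its red pulp as a reserve. Aire itself had 0 UMIs in the 520 monocytes of all 4 spleen libraries, against 2, 5, 4 and 0 UMIs over all barcodes of these libraries, so its UMIs did not separate the genotypes. The monocytes numbered 193, 129, 120 and 78, of which 150, 113, 100 and 62 were nonclassical and 39, 14, 18 and 15 classical. No barcode sequence among them occurred in more than 1 spleen library.

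Genes outside the selection set these cells apart from lymphocytes. Csf1r, the receptor for the monocyte growth factor M-CSF, had a UMI in 95.6% of them (95% Clopper-Pearson interval 93.4 to 97.2%), against 0.0870% of B cells and 0.246% of T cells from the same libraries. Median depth was 8422 UMIs in the monocytes, 4266 in the B cells and 5443 in the T cells. The integrin Itgam had a UMI in 77.5% of monocytes, against 0.748% and 0.924%, and the lysosomal protein Cd68 in 94.6%, against 1.53% and 1.48%. Ccr2 was found in 67.9%, against 0.0696% of B cells and 11.5% of T cells, and the fractalkine receptor Cx3cr1 in 82.5%, against 0.104% and 1.60%. All 5 shares were far above those in the lymphocytes, which were defined as having no Lyz2 UMI. No other myeloid cells were compared, so these shares do not tell monocytes from macrophages or dendritic cells. Treml4 and Cd300e, a pair of surface receptors of nonclassical monocytes that had no part in the selection, had a UMI in 68.5% and 26.1% of nonclassical cells (median depth 7709 UMIs) and in 5.81% and 0% of the deeper classical cells (11138 UMIs). Of the genes that chose the subsets, Ace, Ear2 and Adgre4 together had a UMI in 0.209% of B cells and 0.308% of T cells, and Ly6c2 in 2.66% and 22.8%.

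Cells near the Lyz2 limit were less monocyte-like than the rest. The 12 members with 5 or 6 Lyz2 UMIs had 248 CPM of Csf1r and 229 of the transcription factor Cebpb (CPM, the per-million share of a gene among all UMIs of the cells counted), and the 13 cells just outside, with 3 or 4, had 266 and 189.9. The 508 members with 7 or more had 748 and 1132 CPM. At the other limits, 2 members had 1 UMI of the C1q genes and 13 had 1 of Cd79a, with no cell at 2 or 3 of either. A further 7 cells stood outside with 1 Cd3 UMI, and 28 with 10 or more of S100a8, in which the neutrophil gene S100a9 reached 108951 CPM. Within the selection S100a9 was at 0.682 CPM in the cells with 7 or more Lyz2 UMIs.

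Genes of other splenic cells ranged from 0 to 663 CPM when summed by list. Among 10 neutrophil genes, Retnlg, Ngp, Ltf, Camp, Cxcr2 and Mmp9 had 0 UMIs, and the list summed to 119, 109.9, 129 and 121 CPM, of which Csf3r, which monocytes also express, made up 73.6%. Of 10 red pulp macrophage genes, Vcam1 and Mertk were at 0, and the sum of 354, 467, 492 and 569 CPM was led by Trf (50.6%). The 4 platelet genes were at 0, basophil and mast cell genes had 1 UMI, and eosinophil genes, led by Ear1, summed to 1.66, 4.66, 3.997 and 6.47 CPM with Epx, Prg2 and Il5ra at 0. B cell genes (4 of 8 listed are in the files, led by Cd79b) summed to 26.6, 21.4, 28.0 and 32.3 CPM, and T cell genes (5 of 8, led by Cd8a) to 9.97, 5.59, 5.996 and 3.23. Red cell genes, led by Hbb-bs, gave 18.3, 24.2, 3.997 and 32.3 CPM. The plasmacytoid dendritic cell list gave 41.0, 59.6, 53.0 and 42.0, almost all Tcf4 (94.9%), with Siglech and Klk1 at 0.

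A dendritic cell signature was present in all 4 libraries. The 11 conventional dendritic cell genes summed to 285, 238, 247 and 663 CPM, led by Cd209a (43.8%) with Ccr7 and Fscn1 at 0. The *Aire*-/- anti-PD1 library stood above the other 3. In the *Aire*-/- isotype library 1 cell with 12635 UMIs held all 79 Gzma, 32 Nkg7 and 7 Prf1 UMIs of that library's monocytes and 126 of its 127 Ccl5 UMIs. These genes encode killer cell granule proteins and a chemokine of cytotoxic lymphocytes. The same cell had 440 Lyz2, 7 Csf1r and 21 Ly6c2 UMIs. The 7 natural killer cell genes summed to 1.11, 0, 139.9 and 4.85 CPM.

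**Figure D1:**
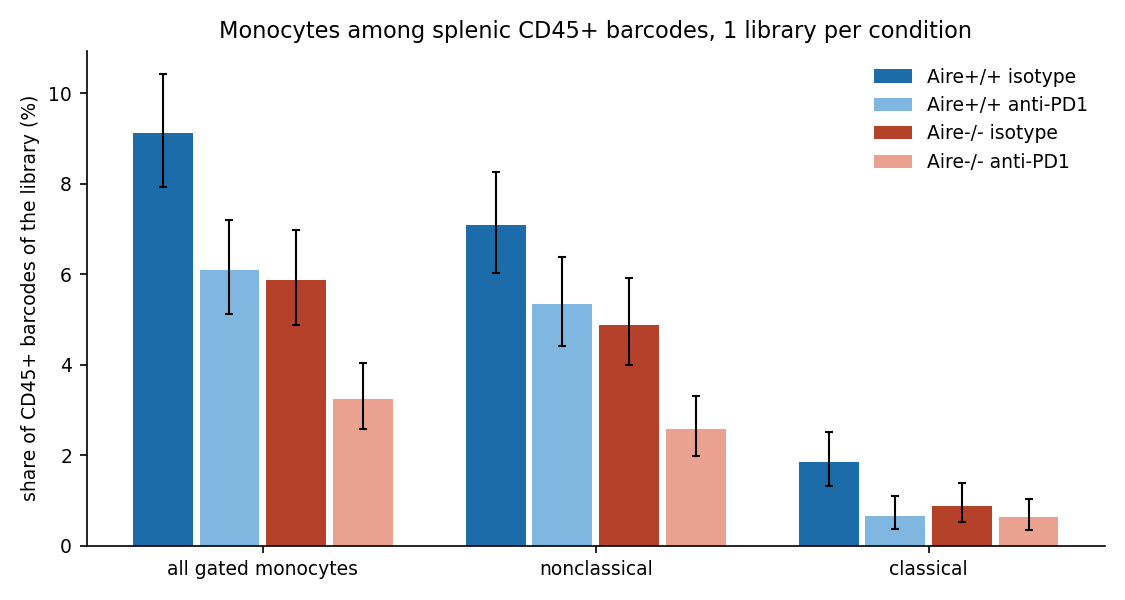
Gated monocytes and their subsets as a percentage of all CD45+ barcodes in each spleen library, with 95% Clopper-Pearson intervals of counting error. The isotype library of *Aire*+/+ mice was highest and the anti-PD1 library of *Aire*-/- mice lowest for all monocytes.

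Monocytes took up a smaller share of splenic CD45+ barcodes in *Aire*-/- than in *Aire*+/+ mice under both treatments, and a smaller share after anti-PD1 than after isotype antibody in both genotypes. They were 9.11% (7.92 to 10.4%), 6.09% (5.11 to 7.20%), 5.86% (4.88 to 6.97%) and 3.25% (2.58 to 4.04%) of barcodes. The *Aire*+/+ isotype library was highest, the *Aire*-/- anti-PD1 library lowest, and the intervals of these 2 did not overlap with each other or with the pair between them. The ratio of *Aire*-/- to *Aire*+/+ was 0.643 (0.508 to 0.812) with isotype antibody and 0.533 (0.397 to 0.711) with anti-PD1. Between treatments, the ratio of anti-PD1 to isotype was 0.669 (0.531 to 0.840) in *Aire*+/+ and 0.554 (0.411 to 0.743) in *Aire*-/- mice. Each of these 4 ratios shares libraries with others, so they are not independent. No difference between conditions was tested.

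The nonclassical share was lower in *Aire*-/- mice and after anti-PD1 in each pair of libraries. Nonclassical cells made up 7.08%, 5.34%, 4.88% and 2.58% of barcodes, an *Aire*-/- to *Aire*+/+ ratio of 0.690 (0.530 to 0.894) under isotype antibody and 0.484 (0.349 to 0.665) under anti-PD1. Classical cells made up 1.84% (1.31 to 2.51%), 0.661% (0.362 to 1.11%), 0.879% (0.522 to 1.39%) and 0.624% (0.350 to 1.03%). The interval of the *Aire*+/+ isotype library, the highest, overlapped with that of the *Aire*-/- isotype library and lay above those of both anti-PD1 libraries. The *Aire*-/- to *Aire*+/+ ratio for classical cells was 0.478 (0.257 to 0.855) under isotype antibody and 0.944 (0.425 to 2.11) under anti-PD1. Between treatments, anti-PD1 to isotype, the ratio was 0.754 (0.585 to 0.969) for nonclassical and 0.359 (0.180 to 0.676) for classical cells in *Aire*+/+ mice, and 0.529 (0.379 to 0.733) and 0.711 (0.333 to 1.49) in *Aire*-/- mice. With the gate after thinning to 2000 UMIs the classical *Aire*-/- to *Aire*+/+ ratio under anti-PD1 was 0.488 (0.262 to 0.884). With the stricter gate this ratio was 1.18 (0.454 to 3.16) under anti-PD1 and 0.752 (0.369 to 1.49995) under isotype antibody. With the gate after thinning the classical ratio of anti-PD1 to isotype in *Aire*-/- mice was 0.457 (0.247 to 0.821). With B cells left out of the denominator, monocytes were 26.8%, 19.3%, 17.5% and 11.4% of the remaining barcodes, in the same order.

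By the selection, most splenic monocytes were nonclassical and most tumor cells were not. Nonclassical cells were 77.7% (71.2 to 83.4%), 87.6% (80.6 to 92.7%), 83.3% (75.4 to 89.5%) and 79.5% (68.8 to 87.8%) of splenic monocytes, and 35.1%, 34.4%, 37.5% and 36.3% of tumor cells chosen by the same counts. The ranges of the tissues did not overlap, and the intervals of the 4 spleen libraries did. The mean was 82.0% ± 4.39 (SD, n = 4 libraries) in spleen and 35.8% ± 1.38 (SD, n = 4) in tumor, a difference of 46.2 percentage points, and 44.1 points with the gate after thinning to 2000 UMIs. The planned permutation test of this difference is not used, since the shares are made of the Ace, Ear2 and Adgre4 counts that chose the cells. Ly6c2 had a UMI in 52.9% of splenic nonclassical cells and in 87.3% of the 787 tumor cells so called. Tissue and dissociation cannot be told apart in this comparison.

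Nonclassical and classical monocytes of the spleen differed in a broad program. Nonclassical cells were higher in Fabp4 and Cd36, Bcl2a1 copies, Fcgr4, Havcr2 and Nr4a1, and classical cells were higher in Ccr2, F13a1, Cfp and Ctsc. UMIs were summed for each library and subset and compared with edgeR quasi-likelihood tests, with library as a block. These p-values measure the spread among 4 libraries, each a pool of mice of 1 condition. Of 5033 genes tested, 649 (12.9%) passed an adjusted p of 0.05, 375 (7.45%) higher and 274 (5.44%) lower in nonclassical cells, and 190 and 63 of them by more than 2-fold. The called genes include 5 that the selection used, which are not results. DESeq2 called 364 genes, 212 higher and 152 lower. Without TMM scaling 670 genes were called, 311 higher and 359 lower, so the balance of directions depends on the scaling. Without the *Aire*+/+ isotype library 305 of 4023 genes tested passed, 199 higher and 106 lower. That library held 39 of the 86 classical cells. With each cell thinned to 2000 UMIs 292 of 1514 genes tested passed (19.3%), 167 higher and 125 lower.

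**Figure D2:**
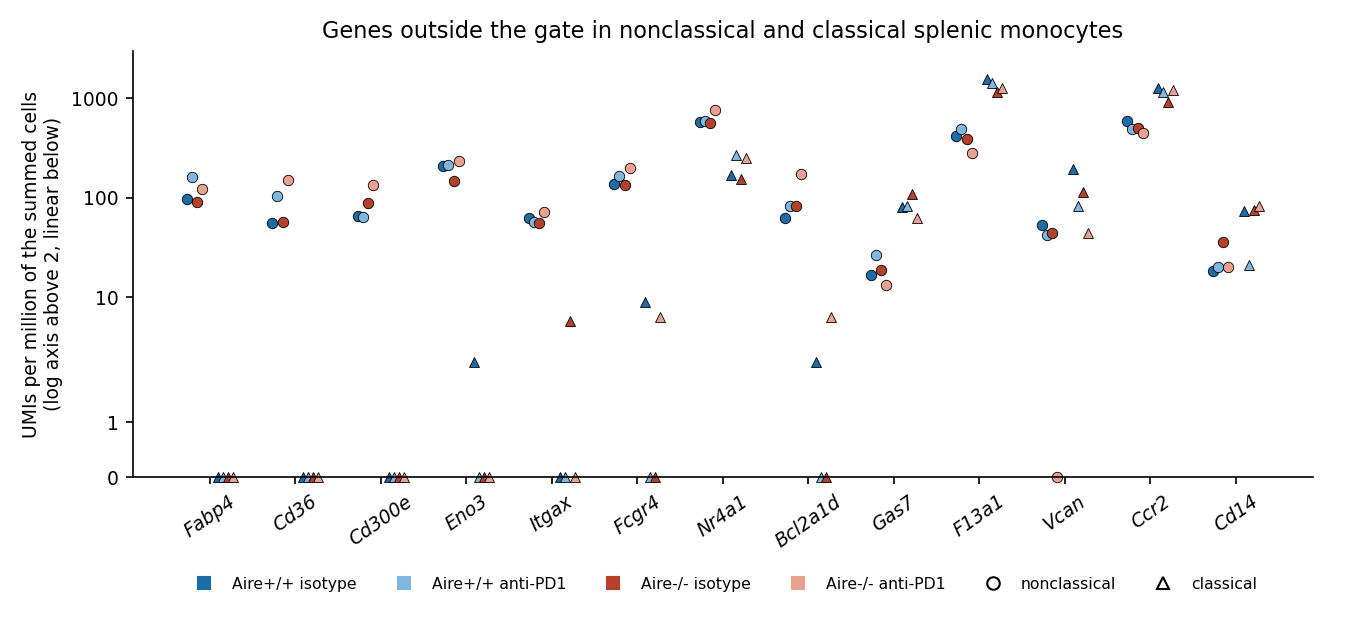
CPM in nonclassical (circles) and classical (triangles) sums of each spleen library for 13 genes named in the text, on a logarithmic axis that turns linear near 0. The subsets did not overlap for Fabp4, Eno3, Fcgr4, Nr4a1 and F13a1.

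Several genes higher in nonclassical cells had no UMI in any classical cell. Fabp4, a cytosolic fatty acid-binding protein, was at 96.6, 163, 91.5 and 123 CPM in nonclassical sums, 401 UMIs in all, and at 0 in the 4 classical sums. That made it at least 35.7-fold higher (floor of 3 UMIs over the group, adjusted p = 1.1e-06). Cd36, a scavenger receptor for oxidized lipid, was at 55.95, 103, 57.6 and 152 CPM against 0, at least 24.9-fold higher (adjusted p = 3.9e-06). Both were present in all 4 nonclassical sums and their highest values were not from the same library. Cd300e, an activating receptor of myeloid cells, was at 65.9, 63.4, 88.95 and 134 CPM against 0, at least 24.4-fold (adjusted p = 3.9e-06). Cd300lh of the same family was at least 19.2-fold higher, Lilra5, a leukocyte immunoglobulin-like receptor, at least 11.4-fold, the kinase phosphatase Dusp16 at least 12.1-fold and the Wnt pathway transcription factor Tcf7l2 at least 9.43-fold. All of these were higher in nonclassical cells of 4 of 4 libraries. Eno3, an enolase best known from muscle, was at 209, 213, 148 and 237 CPM against 2.25, 0, 0 and 0, 689 UMIs against 1, a pooled ratio of 184 (95% interval 32.9 to 7276) with adjusted p = 6.4e-09.

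Of 28 listed nonclassical genes, 27 were tested, 26 were higher in nonclassical cells and 1 did not pass, with a median log2 fold change of 2.73 against 0.00 over all genes tested. The median was also 2.73 with the 4 members at 0 in classical cells set to their bounds. Spn, the sialomucin CD43 used to sort these cells, was at 317, 320.2, 277 and 377 CPM against 74.1, 118, 74.7 and 63.1 (log2 fold change 2.06 ± 0.17 SE, adjusted p = 3.5e-07). Its ranges did not overlap. Most genes of the classical list went the other way. Of 20 listed classical genes, 17 were lower in nonclassical cells, 2 did not pass and 1, Plac8, was higher, with a median of -0.84. Both lists were chosen with earlier results of these data known, so their counts are not independent support for the subset names.

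F13a1, the A subunit of coagulation factor XIII, was at 1555, 1427, 1166 and 1269 CPM in classical and 417, 495, 392 and 281 in nonclassical sums (log2 fold change -1.72 ± 0.10, adjusted p = 6.9e-09). Every classical sum was above every nonclassical one. Gas7, a regulator of the actin skeleton, had the lowest fold change, with 80.9, 83.5, 109 and 63.1 CPM in classical against 16.9, 26.7, 18.8 and 13.4 in nonclassical sums (-2.10 ± 0.25, adjusted p = 2.2e-05). The other named genes on this side were Mfsd7a (-1.56), Ly6c1 (-1.56), whose sequence is close to that of Ly6c2, Ndrg1 (-1.52), 5830432E09Rik (-1.63), Cfap36 (-1.74), the proteoglycan Vcan (-1.61) and the neutrophil protease Prtn3 (-1.82), all lower in nonclassical cells of 4 of 4 libraries. Vcan did not pass with DESeq2 (-1.57, adjusted p = 0.37) or without the *Aire*+/+ isotype library (-1.40), Prtn3 not with DESeq2 (adjusted p = 0.67) and Cfap36 not without the *Aire*-/- isotype library (-1.42). Prtn3, the 1 tested gene of 7 from the granules of monocyte progenitors, was at 126, 41.8, 22.98 and 37.9 CPM in classical and 34.5, 25.6, 0 and 0 in nonclassical sums.

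Transcription factors that passed were mostly higher in nonclassical cells. Nr4a1, on which these cells depend, was at 576, 588, 569 and 769.8 CPM in nonclassical and 171, 272, 155 and 253 in classical sums (log2 fold change 1.66 ± 0.12, adjusted p = 1.7e-07), and all nonclassical sums were above all classical ones. Klf4, which monocytes need in order to form (1.54), Pou2f2 (1.20) and the repressor Bcl6 (1.49) were higher in nonclassical cells of 4 of 4 libraries. Bcl6 did not pass with DESeq2 (1.33, adjusted p = 0.058) or without the *Aire*+/+ isotype library (0.91). Of 18 tested factors of the monocyte lineage, 6 were higher, 1, Cebpd, was lower and 11 did not pass, with a median of 0.23, against 7.45% higher and 5.44% lower over all genes tested. The counts for the other lists stand against the same shares. The lists overlap, so their counts are not separate results. Of the higher genes, Nr4a1, Cebpb and Pou2f2 here are also on the nonclassical list. So are Csf1r, Cx3cr1, Lair1 and, among adhesion genes, Itgal, Itgax, Spn and S1pr5.

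Several Bcl2 relatives were higher in nonclassical cells. The antiapoptotic Bcl2a1 copies are alike in sequence, so the assignment of reads among them is uncertain, and they moved alike here: Bcl2a1a was at 48.3, 74.5, 56.4 and 123 CPM against 0 in all classical sums (at least 20.5-fold), Bcl2a1b had 386 UMIs against 1, a pooled ratio of 103 (95% interval 18.4 to 4081), and Bcl2a1d had 301 against 2, a pooled ratio of 40.2 (95% interval 11.03 to 333). Bcl2 was at 32.2, 31.1, 36.3 and 75.9 CPM against 4.49, 0, 0 and 18.9 (log2 fold change 2.92 ± 0.48, adjusted p = 5.3e-04). Its highest value in each subset came from the *Aire*-/- anti-PD1 library. Csf1r, which carries the survival signal of M-CSF, was at 758, 783, 882 and 884 against 443, 494, 649 and 783 (0.58 ± 0.10, adjusted p = 8.4e-04). Nonclassical cells were higher in each library, while the ranges of the subsets overlapped. Of 11 tested growth factor receptors and survival genes, 5 were higher and 6 did not pass, with a median of 0.32.

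Receptors that place monocytes in vessels and tissue split between the subsets. Ccr2 was at 1280.4, 1149, 913 and 1199.6 CPM in classical and 589, 495, 504 and 444 in nonclassical sums (log2 fold change -1.09 ± 0.09, adjusted p = 5.8e-07), with no overlap. Cx3cr1, which holds patrolling cells at the endothelium, was higher in nonclassical cells (1.09 ± 0.16, adjusted p = 1.6e-04), at 402, 368, 373 and 390.5 against 157, 139, 178 and 322. Cxcr4, the bone marrow retention receptor, did not pass (0.95, adjusted p = 0.054). It passed without a filter on low counts (1.01), with the stricter gate (1.45), with the gate of 2 UMIs (1.07), without dendritic cell genes (1.40) and in nonclassical cells without Ly6c2 (1.94). Il1b was at 75.9, 44.5, 80.2 and 82.6 CPM against 4.49, 0, 22.98 and 0 (3.49 ± 0.45, adjusted p = 4.8e-05), so among splenic monocytes it was mostly in nonclassical cells. Of 6 tested genes of the chemokine and receptor list, which also holds Il1b, 2 were higher, 3 lower and 1 did not pass, with a median of 0.33. Il1b counts as well on the list of pattern recognition and inflammation.

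The integrin Itgax had 208 UMIs in nonclassical and 1 in classical cells, a pooled ratio of 55.5 (95% interval 9.86 to 2204). S1pr5, the sphingosine phosphate receptor that nonclassical monocytes need to leave the bone marrow, was at 71.3, 88.9, 85.2 and 158 CPM against 4.49, 6.96, 17.2 and 12.6 (log2 fold change 3.42 ± 0.33, adjusted p = 2.7e-06). Itgal, the alpha chain of the integrin LFA-1 by which patrolling cells crawl, was at 454, 495, 502 and 533 against 159, 209, 126 and 107 (1.75 ± 0.14, adjusted p = 4.7e-07). None of the 3 overlapped between subsets. Of 15 tested adhesion and migration genes, 7 were higher, 2 lower and 6 did not pass, with a median of 0.38.

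Fc receptors differed from gene to gene. Fcgr4, a receptor for IgG2 antibodies, was at 137, 166, 135 and 201 CPM in nonclassical and 8.99, 0, 0 and 6.31 in classical sums (log2 fold change 4.83 ± 0.36, adjusted p = 1.7e-07). The signaling chain Fcer1g was higher as well (0.29), and the high-affinity receptor Fcgr1 was lower (-0.68, adjusted p = 0.011). Fcgr1 and Fcgr2b (0.46, adjusted p = 0.036) both failed the threshold with DESeq2 (adjusted p = 0.12 and 0.13) and without the *Aire*+/+ isotype library (-0.66 and 0.39), as well as without library as a block (-0.64 and 0.48), with the stricter gate (-0.37 and 0.30) and with the subsets selected after thinning (-0.41 and 0.40). Fcgr1 also failed without the *Aire*+/+ anti-PD1 library (-0.62) and Fcgr2b without the *Aire*-/- isotype library (0.40), TMM scaling (0.40), Ly6c2 in the nonclassical cells (0.29) or dendritic cell genes (0.31), and with the gate of 2 UMIs (0.44). Of 6 tested Fc receptor genes 3 were higher, 1 lower and 2 did not pass, with a median of 0.17.

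Inhibitory receptors were among the genes higher in nonclassical cells. Havcr2, the checkpoint receptor TIM-3, was at 72.05, 67.8, 61.4 and 60.2 CPM against 6.74, 0, 11.5 and 12.6 (log2 fold change 3.17 ± 0.39, adjusted p = 3.0e-05), and its subsets did not overlap. The collagen receptor Lair1 (2.26) and the paired receptors Pilrb1 (1.86) and Pilra (1.77) were higher in 4 of 4 libraries. Of 9 tested checkpoint ligands and inhibitory receptors, 5 were higher, 2 (Lgals9 and Lilrb4a) lower and 2 did not pass, with a median of 0.75.

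Sensors of microbes and complement were divided. Tlr7, a sensor of single-stranded RNA, was at 127, 127, 140.3 and 91.5 CPM against 38.2, 69.6, 63.2 and 50.5 (log2 fold change 1.33 ± 0.21, adjusted p = 3.8e-04), and the NF-κB inhibitor Nfkbia was higher as well (0.81). Cd14, the coreceptor for bacterial endotoxin, was lower (-1.43, adjusted p = 0.0034), at 18.4, 20.01, 36.3 and 20.1 against 74.1, 20.9, 74.7 and 82.1, and did not pass without the *Aire*+/+ isotype library (-1.09). Of 14 tested genes of pattern recognition and inflammation 5 were higher, 1 lower and 8 did not pass, with a median of 0.24. Properdin, encoded by Cfp, which stabilizes the alternative complement pathway, was at 321, 265, 229.8 and 234 CPM in classical and 109.6, 111, 83.9 and 66.9 in nonclassical sums (-1.44 ± 0.14, adjusted p = 2.7e-06). The classical sums were all the higher ones. The central component C3 was lower too (-0.99), and the anaphylatoxin receptor C5ar1 was higher (1.70, and 1.57 without the *Aire*+/+ isotype library, where it did not pass). The 6 tested complement genes had 1 higher, 2 lower and 3 that did not pass, with a median of -0.29.

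Interferon-induced genes did not separate the subsets clearly. Of 16 tested type I interferon genes, 1 was lower in nonclassical cells and 15 did not pass, with a median of -0.25, and of 7 tested interferon-gamma genes 3 were lower and 4 did not pass, with a median of -0.34. Mx1, annotated in GRCm38 as a transcribed pseudogene, was at 31.4, 43.4, 22.6 and 26.8 CPM against 44.9, 153, 63.2 and 25.3 (log2 fold change -1.01 ± 0.29, adjusted p = 0.030), lower in 3 of 4 libraries. Gbp7 (-1.13, lower in 3 of 4 libraries), Gbp3 (-0.76) and Ifi47 (-0.59) are inducible GTPases. None of these 4 passed with DESeq2, with adjusted p-values of 0.090, 0.13, 0.16 and 0.18, or without the *Aire*-/- isotype library, with log2 fold changes of -0.92, -1.10, -0.82 and -0.59. Mx1 and Ifi47 also failed without the *Aire*+/+ anti-PD1 library (-0.62 and -0.44), Gbp3 and Ifi47 without the *Aire*+/+ isotype library (-0.48 and -0.54), and Gbp3 without the *Aire*-/- anti-PD1 library (-0.74). Mx1 (-0.93), Gbp7 (-1.05) and Ifi47 (-0.55) failed without library as a block. Mx1 (-0.82 and -0.84), Gbp3 (-0.65 and -0.57) and Ifi47 (-0.63 and -0.42) failed with the stricter gate and when cells with dendritic cell genes were left out. Gbp3 failed without a filter on low counts (-0.70). Ifi47 failed after thinning (-0.43) and with the subsets selected after thinning (-0.73).

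Lysosomal genes that passed were mostly lower in nonclassical cells, and lipid handling genes that passed were mostly higher. Ctsc, the protease that activates granule enzymes, was at 1042, 877, 528 and 808 CPM in classical and 419, 428, 352 and 339 in nonclassical sums (log2 fold change -1.01 ± 0.11, adjusted p = 7.6e-06), while cathepsin B (Ctsb, 0.73) was higher in nonclassical cells. Both held in 4 of 4 libraries. Of 16 tested lysosomal genes 1 was higher, 8 lower and 7 did not pass, with a median of -0.34. Ctsl (-0.97) and Ctsd (-0.62) did not pass without the *Aire*+/+ isotype library (-0.82 and -0.41), and Ctsd did not pass with DESeq2 (adjusted p = 0.080). Of 10 tested lipid handling genes 6 were higher, 1 lower and 3 did not pass, with a median of 1.01. Among the 6, Cd36, Fabp4 and Apoc2 are also on the nonclassical list. Pltp, the phospholipid transfer protein, was at 98.1, 81.2, 83.9 and 134 against 0, 20.9, 0 and 37.9 (3.35 ± 0.47, adjusted p = 1.2e-04), and lipoprotein lipase, Lpl, was the lower one (-1.61, in 3 of 4 libraries).

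Of 13 tested immediate early and heat shock genes 3 passed, and of 3 tested cell cycle genes 0, against 12.9% of all genes tested. The immediate early gene Fos was at 793, 703, 442 and 619 CPM in classical and 281, 272, 254 and 431 in nonclassical sums (log2 fold change -1.03 ± 0.14, adjusted p = 6.6e-05), lower in nonclassical cells of 4 of 4 libraries. Jund (0.57) and Ier5 (0.56) were higher but did not pass with DESeq2 (adjusted p = 0.25 and 0.20). Neither passed without the *Aire*-/- isotype library (0.56 and 0.56) or without the *Aire*-/- anti-PD1 library (0.43 and 0.40), and Jund also not without the *Aire*+/+ anti-PD1 library (0.55). The 10 other tested genes of 13 did not pass, and the median of the 13 was 0.09. The cell cycle genes were at -0.26 (Hmgb2), 0.25 (Pcna) and 0.20 (Tubb5). Over all genes 1216 had an unadjusted p under 0.05.

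**Figure D3:**
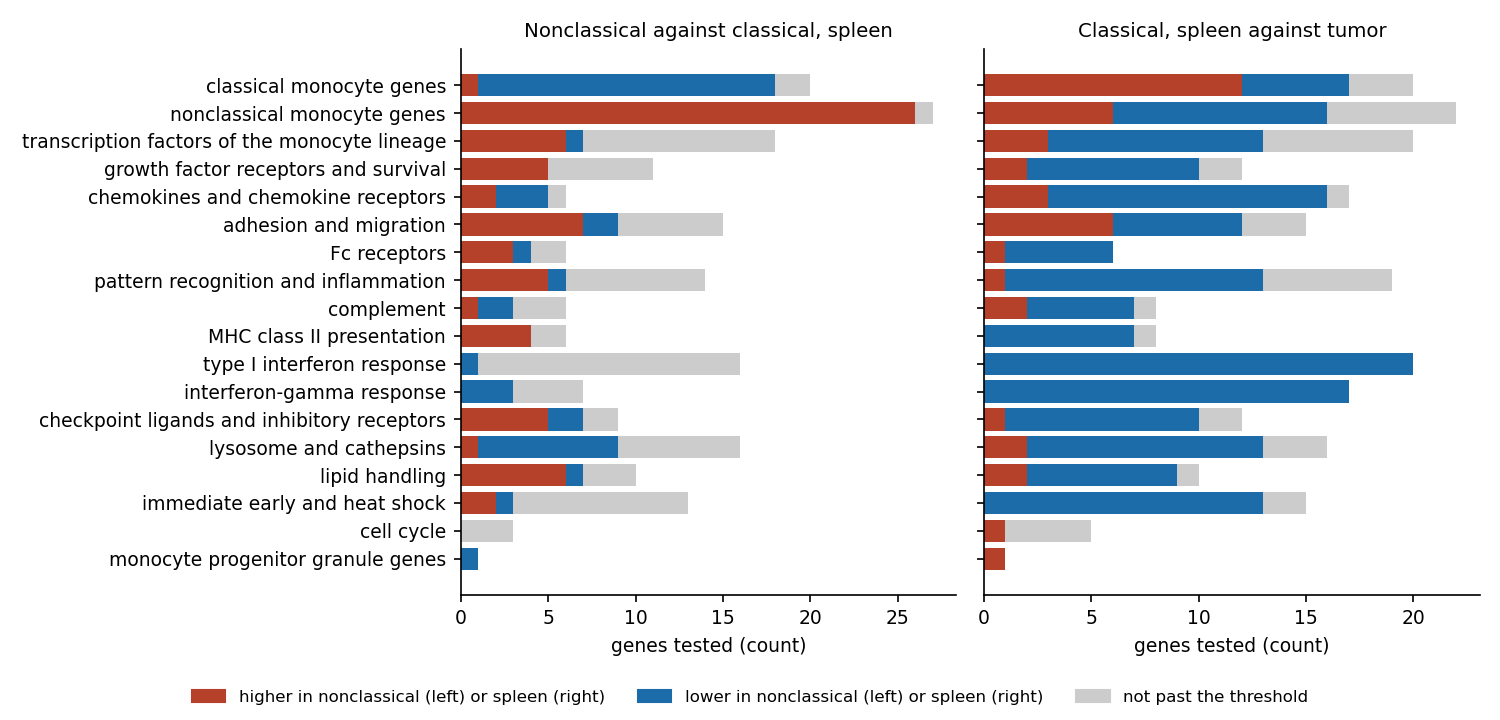
Number of tested genes of each list that were higher, lower or not past an adjusted p of 0.05. Nonclassical splenic monocytes are set against classical ones (left), and spleen against tumor in cells called classical (right). Nonclassical genes were almost all higher on the left, and both interferon lists were wholly lower on the right.

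Antigen presentation by MHC class II was higher in nonclassical sums but sat in few cells. H2-Ab1 was at 975, 415, 742 and 2086 CPM in nonclassical and 171, 6.96, 345 and 234 in classical sums (log2 fold change 2.48 ± 0.25, adjusted p = 4.3e-06). H2-Eb1 (2.62), Cd74, the invariant chain (1.98), and H2-Aa (1.95) were also higher in 4 of 4 libraries, and 2 of 6 tested genes did not pass, with a median of 1.96. With DESeq2 none of the 4 passed (adjusted p = 0.094, 0.18, 0.40 and 0.45). In 40 of the 520 monocytes, a limit chosen after the values were seen, at least 1% of the UMIs came from H2-Aa, H2-Ab1 and H2-Eb1. These 40 were 7.25%, 5.43%, 6.67% and 14.1% of the monocytes and held 76.1%, 80.7%, 77.6% and 85.1% of the UMIs of these 3 genes, so the *Aire*-/- anti-PD1 library was high in both.

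The MHC class II-rich cells were also rich in dendritic cell genes. Cd209a was at 1012 CPM in them, against 39.4 in the other 480, and the dendritic cell growth factor receptor Flt3 at 199.8 against 19.6. Clec9a and Xcr1, receptors of cross-presenting dendritic cells, were at 169 and 73.8 CPM against 0.991 and 0, and the monocyte factor Cebpb was at 280.1 against 1207. Of the 9 cells with neither subset's genes 8 were among the 40, and the 9 together had 10079.6 CPM of H2-Aa, 442 of Clec9a and 1932 of Irf8. With every cell with a UMI of Xcr1, Clec9a, Zbtb46 or Flt3 left out, an alternative chosen after seeing the data, log2 fold changes were 6.39 for H2-Eb1, 3.70 for H2-Ab1, 3.43 for Cd74 and 4.53 for H2-Aa. It did not use Cd209a, and it left 29, 11, 15 and 12 classical cells. The part of dendritic cells in the MHC class II difference was not tested.

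Nonclassical cells with Ly6c2 lay between the other cells for 5 genes chosen because they differed between the subsets. Of the 425 nonclassical cells, 225 had a Ly6c2 UMI and 200 had none, with median depths of 10366 and 4820.5 UMIs, against 11138 in classical cells. Nr4a1 was at 878 CPM in nonclassical cells without Ly6c2, 465 in those with it and 198 in classical cells. Fabp4 was at 275, 37.3 and 0, and Treml4 at 453, 156 and 5.43. All 3 stepped down in that order. Classical genes stepped up, with Ccr2 at 227, 675 and 1177 and F13a1 at 28.8, 606 and 1412. Deeper cells are more likely to show a Ly6c2 UMI. The order was not counted over all genes, and the part of depth in it was not tested. Compared with classical cells, the nonclassical cells without Ly6c2 differed in 1069 of 3207 genes tested (33.3%), 565 higher and 504 lower.

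**Figure D4:**
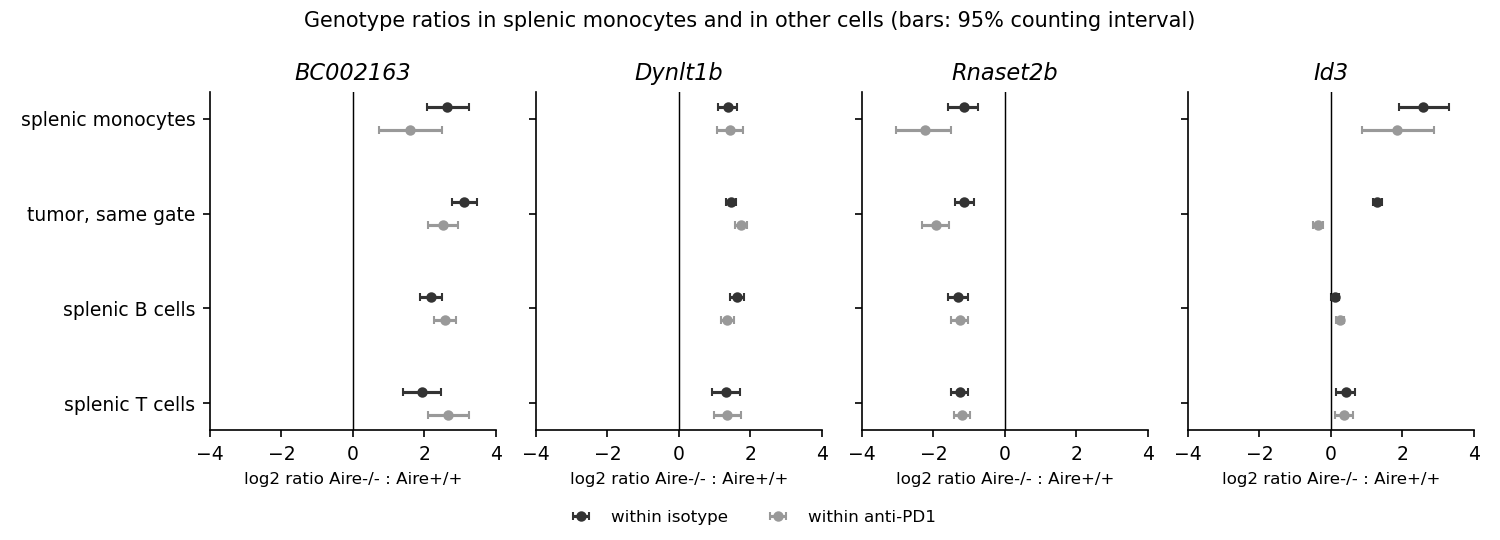
Log2 ratios of *Aire*-/- to *Aire*+/+ for 4 genes in splenic monocytes, tumor cells chosen by the same counts, and splenic B and T cells, under isotype antibody (dark) and anti-PD1 (light), with 95% exact intervals of counting error. BC002163, Dynlt1b and Rnaset2b kept their direction in all 4 cell groups, and Id3 did not.

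Few genes differed 2-fold between genotypes under both treatments. Among 8011 genes with at least 30 UMIs over the 4 libraries' monocytes, 24 (0.300%) were at least 2-fold higher and 33 (0.412%) at least 2-fold lower in *Aire*-/- than in *Aire*+/+ cells in both pairs (not tested, since each condition had 1 library). With the same sign and an interval without 0 in both pairs, the rule for naming genes, 103 were higher and 60 lower. Which direction held more genes thus depends on the rule. Id3, an inhibitor of basic helix-loop-helix factors, was at 13.3, 13.04, 78.9 and 46.9 CPM, log2 ratios of 2.57 (1.90 to 3.29) under isotype antibody and 1.85 (0.88 to 2.88) under anti-PD1. Both *Aire*-/- libraries were above both *Aire*+/+ libraries, with UMIs in 16, 7, 33 and 16 cells. After thinning the isotype ratio of Id3 was 3.66. In classical cells alone the ratio under anti-PD1 was -0.14, from equal UMI counts in both genotypes. Cited4, a coactivator of CBP and p300, was at 10.5, 11.2, 43.97 and 30.7 (2.06 and 1.46). After thinning its isotype ratio was 0.97, and without the highest cell of each library its anti-PD1 interval was -0.05 to 3.05. Ccl5 showed larger ratios (5.26 and 3.80) from 6, 1, 127 and 8 UMIs, but 126 of them were in the 1 cell with killer cell genes, and without the highest cell of each library the isotype ratio was -1.14. H2-Q8, a nonclassical MHC class I gene with near-identical neighbors, had 9, 6, 17 and 24 UMIs.

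Several of the genotype differences were not limited to monocytes. BC002163 was at 18.3, 17.7, 114 and 53.4 CPM in splenic monocytes, log2 ratios of 2.64 (2.07 to 3.25) and 1.59 (0.74 to 2.49) for the 2 treatments. In tumor cells chosen by the same counts the ratios were 3.11 and 2.51, in splenic B cells 2.18 and 2.58, and in splenic T cells 1.92 and 2.65, so the *Aire*-/- mice were higher in all 4 cell groups. Rnaset2b, a lysosomal ribonuclease, was lower, at 133, 129, 59.96 and 27.5 CPM with log2 ratios of -1.15 (-1.59 to -0.74) and -2.24 (-3.06 to -1.50), and was lower as well in tumor (-1.13 and -1.93), B (-1.31 and -1.26) and T cells (-1.27 and -1.20). Dynlt1b, a dynein light chain chosen after its values were seen, lies near it on chromosome 17 and was higher in monocytes, with ratios of 1.36 (1.09 to 1.64) and 1.42 (1.07 to 1.78), as well as 1.46 and 1.73 in tumor, 1.62 and 1.35 in B and 1.31 and 1.35 in T cells. Under anti-PD1 Rnaset2b was at -3.80 in nonclassical and -1.34 in classical monocytes alone. BC002163 under isotype antibody was at 1.94 in classical monocytes alone. All 3 genes have copies of nearly the same sequence, so which copy the reads came from is uncertain. Summed over the Dynlt1 copies counted, the ratios in splenic monocytes were 1.16 and 1.27, while Dynlt1a alone was at -0.21 and 0.06. Id3 was not shared in this way, with 1.30 and -0.36 in tumor, 0.12 and 0.26 in B and 0.41 and 0.36 in T cells.

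Of the genes lower in *Aire*-/- monocytes, Prtn3 was at 55.9, 27.01, 3.997 and 9.70 CPM, with log2 ratios of -3.81 (-5.71 to -2.41) and -1.48 (-3.04 to -0.18), and was found in 50, 18, 3 and 1 cells. Both *Aire*+/+ libraries were above both *Aire*-/- libraries. In classical cells alone the ratio under anti-PD1 was -0.14, from equal UMI counts in both genotypes. In tumor cells chosen by the same counts the ratios were -0.95 (-1.47 to -0.46) and -1.14 (-1.94 to -0.41). Prtn3 lies 1.85 Mb from *Aire* on chromosome 10, at chr10:79879667-79883174 against chr10:78030022-78043610 in GRCm38.p6. Among 101 genes within 5 Mb of *Aire* with at least 30 UMIs it was the 1 gene at least 2-fold lower in both pairs, and none was 2-fold higher, against 32 lower and 23 higher among 7617 genes with a position. The medians were -0.09 and 0.03, against 0.00 and -0.01 over those 7617. Igfbp6, an inhibitor of insulin-like growth factors, had 20, 9, 1 and 0 UMIs, Snord35a, a small nucleolar RNA, 30, 15, 1 and 1, and the long noncoding RNA 2500002B13Rik 45, 17, 9 and 2. Snord35a was lower in *Aire*-/- B cells as well (-0.64 and -1.95) and T cells (-0.80 and -2.15), and at 0.51 and -1.21 in the tumor cells. Without the highest cells Igfbp6 had 7 UMIs against 0 under anti-PD1, and the interval included 0. The ratio of 2500002B13Rik under isotype antibody turned to 0.29 when each cell was thinned to 2000 UMIs, and was -0.29 in nonclassical cells alone.

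The gene lists as a whole stayed near the genotype background. Median log2 ratios of *Aire*-/- to *Aire*+/+, under isotype antibody and anti-PD1, were -0.01 and -0.32 for classical genes, 0.19 and 0.08 for nonclassical genes, 0.08 and 0.13 for transcription factors and 0.27 and 0.28 for interferon-gamma genes, against 0.00 and -0.01 over all 8005 genes outside the selection. Type I interferon genes were at -0.14 and -0.43, and the other lists of more than 1 gene lay between -0.30 and 0.23, apart from immediate early genes under anti-PD1 (0.66). The MHC class II median was -0.05 and 1.75, high under anti-PD1 in the library with the larger share of MHC class II-rich cells (14.1%). The part of those cells in it was not tested.

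Anti-PD1 antibody went with still fewer 2-fold differences, 9 genes (0.112%) higher and 31 (0.387%) lower than with isotype antibody in both genotypes. By the naming rule, the same sign and an interval without 0 in both pairs, 49 genes were higher and 25 lower. The balance of directions thus depends on the rule. Interferon-induced genes of the Ifit family, which bind viral RNA, were 3 of the 5 named genes on the higher side. These 5 were the first of the 49. Of 19 type I interferon genes with at least 30 UMIs, 2 were at least 2-fold higher in both genotypes. Ifit3 had log2 ratios of 1.45 (0.94 to 1.97) in *Aire*+/+ and 1.06 (0.39 to 1.74) in *Aire*-/- monocytes, at 29.4, 80.1, 34.98 and 72.8 CPM, and Ifit1 0.97 and 1.45. The *Aire*+/+ ratio of Ifit3 was 0.91 in nonclassical cells alone. In all *Aire*+/+ monocytes after thinning Ifit3 was at 0.65 and Ifit1 at 2.06. Ifit2 was at 10.5, 28.9, 10.99 and 38.8 (1.46 and 1.82), and the highest cell of each anti-PD1 library held 14 of 31 and 18 of 24 of its UMIs. Without the highest cell of each library the intervals of Ifit2 included 0, at 0.85 (-0.22 to 1.93) and 0.28 (-1.53 to 1.995), as did those of Ifit1, at 0.64 (-0.24 to 1.52) and 0.85 (-0.61 to 2.32), and those of Ifit3 did not, at 1.04 (0.43 to 1.65) and 0.93 (0.15 to 1.73). Both anti-PD1 libraries were above their isotype libraries for all 3 genes, and in *Aire*-/- classical cells alone Ifit3 (-1.19) and Ifit1 (-2.67) went the other way. In *Aire*+/+ classical cells alone the ratios were larger, at 4.22 for Ifit2, 3.69 for Ifit3 and 2.77 for Ifit1. They come from 14 cells with anti-PD1 and 39 with isotype antibody and have no interval. Without its highest cell, the *Aire*+/+ anti-PD1 library kept 52 of 86 Ifit3 and 23 of 35 Ifit1 UMIs over all its monocytes. The part of single cells in the classical ratios was not tested. Ifit1 was at 2.64 in *Aire*-/- nonclassical cells alone. The whole type I interferon list had medians of 0.37 and 0.05, against 0.01 and -0.01 over all genes.

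The kinase Fam20c (1.27 and 1.81) and Klhl18 (0.92 and 0.99) were the other named genes on the higher side, and both went the other way in *Aire*+/+ classical cells alone (-0.69 and -1.54). Without the highest cell of each library the intervals of Klhl18 included 0 (-0.02 to 1.78 and -0.03 to 1.84). On the lower side Vcan was at 85.8, 46.6, 54.96 and 11.3 CPM, with ratios of -0.88 (-1.37 to -0.41) in *Aire*+/+ and -2.28 (-3.66 to -1.14) in *Aire*-/- monocytes. Its level was highest in the *Aire*+/+ isotype library and lowest in the *Aire*-/- anti-PD1 library, and in *Aire*+/+ nonclassical cells alone its ratio was -0.32. The zinc transporter Slc39a1 (-1.03 and -1.25), Cd24a (-0.68 and -1.11), Luc7l3 (-0.67 and -0.64) and Copg2 (-0.58 and -0.92) followed, and without the highest cells the *Aire*-/- interval of Copg2 was -1.94 to 0.02. The direction for Cd24a was not shared by the *Aire*-/- subsets, at 0.15 in nonclassical and 1.36 in classical cells alone, and turned in *Aire*+/+ monocytes after thinning (0.33). The MHC class II list had medians of -0.83 and 0.998, opposite in sign between the genotypes, and the remaining lists of more than 1 gene lay between -0.29 and 0.44.

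Classical monocytes of the spleen were low in inflammatory genes that were high in tumor cells called classical by the same counts. The identity of those tumor cells was not checked with marker genes or lists of other cells, as was done in spleen. The splenic cells were lower in chemokines, interferon-induced genes, immediate early genes and MHC class II. They were higher in most genes that define circulating classical monocytes. The same selection in tumor libraries gave 463, 339, 286 and 238 classical cells, compared with the 39, 14, 18 and 15 of the spleen by edgeR with condition as a block. Of 7607 genes tested, 2683 (35.3%) passed an adjusted p of 0.05, 1166 (15.3%) higher and 1517 (19.9%) lower in spleen, with a median log2 fold change of 0.02. Without the *Aire*+/+ isotype condition 755 were higher in spleen, and with each cell thinned to 2000 UMIs 1052 of 3352 genes tested passed (31.4%), 397 higher and 655 lower. Tissue and enzymatic against mechanical dissociation cannot be told apart here.

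Among 20 classical genes, 12 were higher in spleen, 5 lower and 3 did not pass, with a median of 0.53. Lyz1, a lysozyme copy close in sequence to Lyz2, was at 1049, 1378, 1361 and 1705 CPM in spleen and 225, 244, 327 and 614 in tumor (log2 fold change 1.70 ± 0.15, adjusted p = 9.6e-09), with no overlap. Hpgd, which inactivates prostaglandins, was at 96.6, 83.5, 236 and 309 in spleen against 2.54, 5.21, 7.31 and 17.1 in tumor (4.22 ± 0.25, adjusted p = 1.5e-11). The prostaglandin synthase Ptgs2 went the other way, with 3 spleen UMIs against 5362, a pooled ratio of 0.00967 (95% interval 0.00199 to 0.0283). The homing integrin chain Itga4 (1.66), Spn (2.08), the neonatal Fc receptor Fcgrt (1.18) and Prtn3 (2.37) were higher in spleen in 4 of 4 conditions. So were the histone gene Hist1h2ac (4.32), Smim5 (3.83), Tmcc1 (3.53) and the peroxisomal fatty acid transporter Abcd2 (3.46).

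Chemokine genes showed the widest gap. Cxcl2, a neutrophil attractant, had 0 UMIs in splenic classical cells and was at 3587, 3837, 3045 and 2277 CPM in tumor ones, at least 1018-fold higher in tumor. Ccl7 (at least 287-fold), Ccl12 (at least 175-fold), both ligands of Ccr2, and Cxcl9 (at least 110.5-fold) had no splenic UMI either, nor had the itaconate-producing enzyme Irg1 (at least 90.3-fold) or the G protein regulator Rgs1 (at least 352-fold). Cxcl10 had 2 UMIs in spleen against 48911, a pooled ratio of 7.07e-04 (95% interval 8.56e-05 to 0.00255). Il1b was at 4.49, 0, 22.98 and 0 CPM in spleen against 5675, 5457, 6329.9 and 5973 in tumor (log2 fold change -10.13 ± 0.27, adjusted p = 1.9e-16). Of 17 tested genes of the chemokine and receptor list, 13, Il1b among them, were lower in spleen. On that list 3 (Ccr2, Cx3cr1 and Ccl6) were higher and 1 did not pass. The median was -6.87, or -6.79 with members at 0 set to their bounds.

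All 20 type I interferon genes and all 17 interferon-gamma genes tested were lower in splenic classical cells, with medians of -2.84 (-2.61 with members at 0 at their bounds) and -3.54. Isg15, a ubiquitin-like protein, was at 78.6, 216, 155 and 44.2 CPM in spleen against 3598, 3729.7, 4421 and 3539 in tumor (log2 fold change -5.43 ± 0.21, adjusted p = 3.5e-14). Cd274, the PD-1 ligand, had 1 UMI in spleen against 3829, a pooled ratio of 0.00452 (95% interval 1.14e-04 to 0.0252). Of 15 immediate early and heat shock genes 13 were lower and 2 did not pass (median -2.75), of 19 pattern recognition genes 12 were lower and 1 higher (median -2.83), and of 8 MHC class II genes 7 were lower (median -2.31). Fc receptors had 5 of 6 lower (median -1.74), lysosomal genes 11 of 16 lower and 2 higher (median -0.82), against 19.9% lower and 15.3% higher over all genes, transcription factors 10 of 20 lower and 3 higher (median -0.65), and nonclassical genes 10 of 22 lower and 6 higher (median -0.54). Growth factor receptors and survival genes had 8 of 12 lower and 2 higher (median -1.07), adhesion genes 6 of 15 lower and 6 higher (median -0.16), complement genes 5 of 8 lower and 2 higher (median -0.73), inhibitory receptors and ligands 9 of 12 lower and 1 higher (median -2.08), lipid genes 7 of 10 lower and 2 higher (median -1.74) and cell cycle genes 1 of 5 higher (median 0.20). No spleen value of Isg15 reached the range of the tumor.

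Promoters of the named subset genes are shown because these genes moved together between subsets. RefSeq promoters (300 bases around the start of a gene, GRCm38.p6) were found for 8 of the 10 genes most raised in nonclassical cells and for 7 of the 10 most lowered, 9 promoters on each side. They were searched on both strands for letters bound by factors of monocytes: TTGCNNAA (C/EBP, in 10.8% of all 32851 promoters), GAGGAAGT (PU.1, in 3.20%) and AAAGGTCA (NR4A1, in 1.51%). On the higher side the PU.1 letters were in Bcl2a1a and Bcl2a1b, the C/EBP letters in Lilra5 and the NR4A1 letters in none. On the lower side the PU.1 letters were in F13a1, Ly6c1 and Prtn3 and the C/EBP letters in Mfsd7a. F13a1 and Ly6c1 each had another promoter, with none of these letters. A match is a description of the sequence and does not show binding. Capitals mark the matched letters in the promoters of Bcl2a1a (chr9:88956670-88956969 on the plus strand), Bcl2a1b (chr9:89199023-89199322 on the plus strand), Lilra5 (chr7:4237504-4237803 on the plus strand) and F13a1 (chr13:37049164-37049463 on the minus strand).
Bcl2a1a: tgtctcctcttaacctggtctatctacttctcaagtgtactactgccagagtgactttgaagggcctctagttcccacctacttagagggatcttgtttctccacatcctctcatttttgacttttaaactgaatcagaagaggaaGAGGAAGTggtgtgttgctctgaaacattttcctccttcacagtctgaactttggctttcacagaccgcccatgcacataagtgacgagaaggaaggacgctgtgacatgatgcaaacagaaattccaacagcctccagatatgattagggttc
Bcl2a1b: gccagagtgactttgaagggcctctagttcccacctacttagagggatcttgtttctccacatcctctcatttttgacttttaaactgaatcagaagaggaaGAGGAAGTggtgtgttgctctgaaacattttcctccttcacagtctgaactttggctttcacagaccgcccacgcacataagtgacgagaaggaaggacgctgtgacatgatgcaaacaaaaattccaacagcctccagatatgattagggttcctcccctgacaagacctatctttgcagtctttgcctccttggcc
Lilra5: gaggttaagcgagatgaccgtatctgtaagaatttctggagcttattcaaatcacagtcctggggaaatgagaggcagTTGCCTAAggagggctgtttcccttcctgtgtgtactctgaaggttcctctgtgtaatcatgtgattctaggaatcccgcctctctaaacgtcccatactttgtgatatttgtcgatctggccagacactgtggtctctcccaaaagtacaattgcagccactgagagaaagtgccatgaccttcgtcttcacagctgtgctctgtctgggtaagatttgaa
F13a1: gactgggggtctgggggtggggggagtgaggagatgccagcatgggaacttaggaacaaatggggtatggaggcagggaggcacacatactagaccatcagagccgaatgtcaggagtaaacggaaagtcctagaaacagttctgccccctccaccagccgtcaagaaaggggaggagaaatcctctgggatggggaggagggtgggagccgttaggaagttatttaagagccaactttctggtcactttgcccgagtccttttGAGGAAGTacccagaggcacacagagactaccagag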

How the data were processed

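The deposited files hold UMI counts of 10x 3′ libraries, 1 table of genes by cell barcodes for each library, made by the authors with the build GRCm38 per the labels; the values were whole numbers and were used as counts. Rows of the same symbol were summed (24469 symbols), and 27 vector rows were left out. The monocytes and gene lists were chosen with earlier results of these data known. Every deposited barcode was used: no barcode filter was applied, no doublet caller was run and no doublet was removed.

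UMIs were summed for each library and subset. The sums were compared with edgeR 4.0.16 (R 4.3.3, limma 3.58.1) by filterByExpr, TMM scaling and quasi-likelihood tests with library, or condition, as a block, and Benjamini-Hochberg adjustment over all genes tested at 0.05. Sums of 8 samples were tested in each comparison. DESeq2 1.42.0 was the alternative test. Other alternatives were no TMM, no filter on low counts, no block, each library left out, Lyz2 limits of 3 and 10, a stricter gate without any UMI of other lineages, a subset gate of 2 UMIs, a filter on cells (200 genes, 20% mitochondrial UMIs), shares of barcodes without B cells, and cells thinned to 2000 UMIs before or after selection. Those with 0 Ly6c2 UMIs, without dendritic cell genes or without the highest cell were chosen after seeing the data.

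Subset and tissue genes were named if they were among the 10 with the largest log2 fold change in each direction, with at least 50 UMIs, an adjusted p under 0.05 and the same direction in 4 of 4 libraries, or among the 4 largest of a list. Condition genes were named if they had at least 30 UMIs, the same sign and an interval without 0 in both pairs, the first 5 in each direction. Not every gene that met these rules is printed. Shares have Clopper-Pearson intervals, levels Poisson intervals and ratios conditional exact intervals, all at 95% (Python 3.11.15, scipy 1.17.1). A count of 0 was given a floor of 3 UMIs over the group. Exact permutation tests of the nonclassical share between tissues, over all libraries and within conditions, were run and are not used, since the gate genes make up the share. B cells (at least 2 Cd79a UMIs, no Lyz2 or Cd3 UMI) and T cells (at least 2 Cd3 UMIs, no Lyz2 or Cd79a UMI) of the same libraries gave the background.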

Additional observations from a re-analysis of the deposited data

Results flagged for a closer look

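The nonclassical share of splenic monocytes moved in opposite directions between the conditions, which was not tested because each condition had 1 library. Relative to *Aire*+/+, it was 5.61 percentage points higher in *Aire*-/- mice with isotype antibody and differed by -8.11 points with anti-PD1. Relative to isotype antibody, the share after anti-PD1 was 9.88 points higher in *Aire*+/+ mice, with a difference of -3.85 points in *Aire*-/- mice. The 4 shares had overlapping counting intervals. With the stricter gate, without any UMI of other lineages, the difference between genotypes with isotype antibody was -0.35 points. With the gate after thinning to 2000 UMIs the differences were no longer opposite, at -0.31 and -1.47 points between genotypes and 6.54 and 5.38 points between treatments.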

How the results depend on the processing

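Each condition had 1 spleen library, so the variation between mice was not measured, and the monocytes were selected by transcripts alone. Of 1017 values of named genes under the alternatives of the subset comparison, 929 kept their direction and side of 0.05, 75 were no longer past it, 13 were newly past it and 0 reversed. Genes that an alternative did not test are not counted. Of 767 values between tissues, 752 were kept, 10 were no longer past it, 4 were newly past it and 1 reversed. Of 90 genotype values 7 moved and 3 reversed, and of 115 treatment values 12 moved and 7 reversed. The nonclassical share differed between spleen and tumor by 46.2 points as reported, and by 44.1 to 48.7 points under the alternatives. Its permutation tests are not used, since the shares are made of the counts that chose the cells.

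The number of genes that differed between subsets was 364 with DESeq2 (212 higher in nonclassical monocytes, 152 lower), 292 of 1514 tested after thinning (167, 125), 418 of 1739 with the subsets selected after thinning (239, 179) and 1069 of 3207 with nonclassical cells without Ly6c2 (565, 504). It was 305 to 614 with 1 library left out (199 to 366 higher, 106 to 248 lower), lowest without *Aire*+/+ isotype. Between tissues it was 4762 of 8950 for all gated monocytes (2249 higher in spleen, 2513 lower), 1052 of 3352 after thinning (397, 655) and 1440 of 3955 with the gate after thinning (595, 845); 755 to 1115 genes were higher in spleen with 1 condition left out. The cause of these changes was not tested.

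Shares follow in the order *Aire*+/+ isotype, *Aire*+/+ anti-PD1, *Aire*-/- isotype, *Aire*-/- anti-PD1. With the stricter gate, gated monocytes were 6.84, 4.68, 4.54 and 2.46% of barcodes, nonclassical 5.62, 4.204, 3.71 and 1.92%, and classical 1.04% in the first. Of barcodes other than B cells, gated monocytes were 26.8, 19.3, 17.5 and 11.4%, nonclassical 20.9, 16.9, 14.6 and 9.04%, and classical 5.42, 2.09, 2.63 and 2.19%. With the gate after thinning, nonclassical monocytes were 5.83, 4.13, 3.56 and 2.07% and classical 3.47, 1.64, 1.75 and 0.801%. Without dendritic cell genes, gated monocytes were 7.60% in the first. The nonclassical share of gated monocytes was 68.4 and 77.5% in *Aire*+/+ spleens with the gate of 2 UMIs, and 27.2, 23.9, 26.2 and 24.3% in tumors; with the gate after thinning it was 62.1, 68.6, 61.7 and 67.1% in spleens and 23.4, 21.8, 19.6 and 18.3% in tumors. The cause was not tested.

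The log2 value that reversed between tissues was *Pltp* in all gated monocytes (0.16). Between genotypes, *Ccl5* reversed with isotype antibody without the highest cell (-1.14) and *2500002B13Rik* with isotype antibody after thinning (0.29). *Id3* with anti-PD1 in classical cells (-0.14) is counted as reversed too. Its UMI counts were equal in the 14 *Aire*+/+ and 15 *Aire*-/- cells. Between treatments, *Fam20c* (-0.69) and *Klhl18* (-1.54) reversed in classical cells of *Aire*+/+ mice. *Ifit3* (-1.19) and *Ifit1* (-2.67) did so in classical cells of *Aire*-/- mice. *Cd24a* reversed after thinning in *Aire*+/+ (0.33) and in nonclassical (0.15) and classical (1.36) cells of *Aire*-/- mice.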
